A study of Mus musculus with 18 samples.

Results

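Memory CD8+ T cells of mice labelled cKO for GRP75, a conditional knockout of the gene Hspa9, were compared with memory CD8+ T cells of wild-type (WT) mice. The comparison uses 6 of the 18 RNA sequencing libraries of the series, 3 labelled cKO and 3 labelled WT, chosen by the subset and genotype in their labels and by no measured value. Per the labels, the mice of both genotypes were 8 weeks old, their lymph nodes and spleens gave naive CD8+ T cells, and culture turned these into memory cells, with no treatment. The labels name no other allele or agent, and they do not give the Cre driver, the deleted exons, the culture conditions or the number of mice behind a library. Nothing states that the 3 libraries of a group came from separate mice, so the p-values measure the spread between these libraries only, which may be technical. The naive and effector libraries, 3 of each genotype in each subset, served only to ask whether the genotype effect differed between subsets.

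GRP75, also called mortalin, is the HSP70 chaperone of the mitochondrial matrix, where it pulls imported proteins through the inner membrane, folds them and takes part in iron-sulfur cluster assembly. When protein import or respiration fails, mammalian cells can signal to the cytosol through the integrated stress response, in which ATF4 raises genes for amino acid supply, tRNA charging and feedback factors such as TRIB3. Memory CD8+ T cells persist without antigen, draw on IL-7 and IL-15, rely on mitochondrial respiration, and in their central memory form keep the transcription factor TCF1.

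The libraries held 14771251 to 17155017 reads over the listed genes, and 20792 to 21589 of the 24927 listed genes had at least 1 read in a library. Values are the deposited reads of a gene divided by 1 size factor per library, called normalised reads. The first principal component held 66.2% of the variance and separated the genotypes. Libraries cKO1 and WT2 stood apart from the other 2 of their group. Across 7640 genes, their departures from those libraries correlated at 0.57, which describes the libraries and tests nothing. Each departure fell with gene length, at -0.58 for cKO1 and -0.51 for WT2, whereas it rose with length in the other 4 libraries, at 0.33 to 0.45. Those 4 were each compared with a mean that holds cKO1 or WT2, so their rise follows in part from that comparison. Genes shorter than 1024 bases lay a median 0.32 higher on the log2 scale in cKO1 than in the other cKO libraries, and 0.17 higher in WT2 than in the other WT libraries. Counts for the lists of respiration, ribosome and proteasome genes, many of them short, are therefore given with and without these libraries. All 8 CD8 T cell markers were above 1 CPM (reads scaled to the library total) in both groups, and together they reached 4760 to 5450 CPM in cKO libraries, against 5720 to 6170 in WT libraries.

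Hspa9, the targeted gene (ENSMUSG00000024359, chr18:35070467-35087410 in GRCm39), went against the label. It had 5778, 5669 and 5463 normalised reads in the libraries labelled cKO, against 3916, 4154 and 4053 in the WT libraries. Every library labelled cKO lay above every WT library, and the ratio of the means was 1.39. The log2 fold change was 0.48 (SE 0.07, adjusted p = 3.4e-04 with limma), while an exact permutation test of 3 against 3 libraries gave p = 0.1, the smallest it allows. A count over the whole gene does not show which exons were read, so this value does not show whether the labelled deletion is present. Every direction below is therefore one between libraries labelled cKO and libraries labelled WT, shortened to cKO and WT.

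Testing was limited to the 14622 genes that reached 10 normalised reads in 3 or more of the 6 libraries. Of these, 2793 differed between the genotypes at an adjusted p under 0.05 in limma, which is 19.1%. Of these, 1769 (12.1% of those tested) were higher in the libraries labelled cKO and 1024 (7.0%) were lower. Counts of list members in memory cells given below are to be read beside these shares. A change of at least 2-fold was more frequent among rises, with 922, than among falls, with 157. The groups did not overlap for 5289 genes, or 36.2%, and the median log2 fold change of all tested genes was -0.02. Rises made up 63.3% of the calls with the deposited scaling and 78.0% with scaling to library totals, which moved that median to 0.055. Without WT replicate 3 there were 1839 calls, and the count of lower genes was 497 without WT replicate 3 and 537 without WT replicate 1. Leaving out both libraries that stood apart gave 3687 calls, or 25.2%, with 2083 higher (14.2%) and 1604 lower (11.0%).

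The largest rises in libraries labelled cKO held myeloid genes, a muscle-type respiratory subunit and a stress factor. Cox6a2, the heart and muscle form of a cytochrome c oxidase subunit that mouse plasmacytoid dendritic cells also express (chr7:127804607-127805559), had 646, 522 and 464 normalised reads in cKO libraries, against 8.93, 15.2 and 9.61 in WT libraries. Its log2 fold change was 5.50 (SE 0.22, adjusted p = 1.7e-08), and no cKO library came near a WT library. Cox6a1, which encodes the form found in most tissues, did not pass the test, at -0.06 (adjusted p = 0.75). Fn1, encoding the matrix protein fibronectin, had 205, 228 and 259.5 normalised reads in cKO libraries, against 1.12, 6.09 and 6.73 in WT libraries (5.56, SE 0.43, adjusted p = 2.8e-06). Siglech, a marker of plasmacytoid dendritic cells, had 709.7, 621 and 616 in cKO libraries, against 19.0, 11.2 and 19.2 in WT libraries (5.25, SE 0.21, adjusted p = 1.5e-08). No WT library held more than 19.2 normalised reads of either gene, and no cKO library held fewer than 205. Chil3, Lcn2, Ltf, Lyz2 and Ngp, which are macrophage and neutrophil genes, followed at 4.22 to 5.08, as did Zc3h12c, Adam11 and the sterol hydroxylase gene Cyp27a1. Cox6a2, Fn1, Chil3, Lcn2, Zc3h12c, Adam11 and Cyp27a1 did not hold 10 normalised reads in every WT library. They passed the minimum through cKO libraries, and their fold changes rest on few WT reads. The listed neutrophil markers summed to 240 to 319 CPM in cKO libraries, against 22.7 to 25.5 in WT libraries, and the macrophage and dendritic cell markers to 378 to 433, against 67.6 to 74.8 in WT libraries. Their part in these rises was not tested.

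The largest falls were smaller. Slc28a2b, a nucleoside transporter gene (chr2:122315422-122358521), had 524, 504 and 535 normalised reads in cKO libraries, against 3619, 3414 and 3758 in WT libraries (log2 fold change -2.78, SE 0.07, adjusted p = 1.1e-09). Dapl1, an autophagy-associated gene expressed in resting CD8 T cells, had 358, 313 and 241 in cKO libraries, against 1497, 1698 and 1601 in WT libraries (-2.41, SE 0.13, adjusted p = 1.3e-07). Neither gene's groups overlapped. Slc6a19, a neutral amino acid transporter gene, fell by 2.32 on the log2 scale, and Cd55, the complement regulator, fell by 1.41. Mid1-ps1, listed on chromosome Y, fell furthest, with 4.87, 9.61 and 4.68 normalised reads in cKO libraries, against 229, 140.1 and 189 in WT libraries. It can share reads with its parent Mid1, which fell by 1.53, so the split of reads between these genes is uncertain. The chromosome Y genes Ddx3y, Eif2s3y, Kdm5d and Uty are not listed for the memory libraries of either genotype. The 1 sex-linked gene tested in memory cells did not pass, at -0.2.

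**Figure D1:**
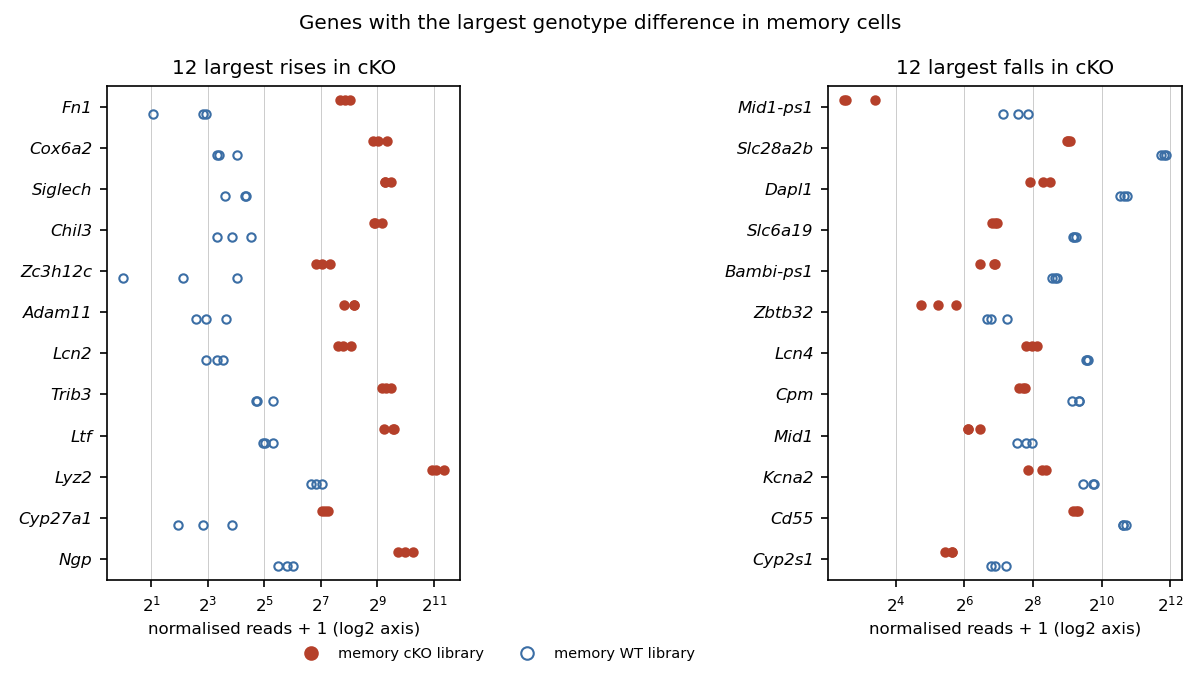
Normalised reads plus 1 (log2 axis) of the 12 largest rises (left) and the 12 largest falls (right) in memory cells, 1 point per library, filled for cKO and open for WT. In every gene shown the 3 cKO points and the 3 WT points do not overlap, as the choice of these genes required; Trib3 lies at 579 to 706 in cKO and 25.0 to 38.6 in WT.

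Genes of the ATF4 arm of the stress response rose together in the libraries labelled cKO. Of 19 tested genes in the list of pathway factors and feedback, 13 rose and 0 fell, with a median log2 fold change of 1.03 beside -0.02 over all tested genes. Trib3, a pseudokinase that restrains AKT and ATF4 (chr2:152179342-152185952), had 638, 579 and 706 normalised reads in cKO libraries, against 25.7, 38.6 and 25.0 in WT libraries (4.41, SE 0.18, adjusted p = 1.7e-08). Every cKO library was far above the WT range. Atf5, a factor of the mitochondrial unfolded protein response, had 703, 626 and 811 in cKO libraries, against 92.6, 97.4 and 92.3 in WT libraries (2.90, SE 0.12, adjusted p = 1.9e-08). Atf3, a stress-induced repressor, had 766, 693 and 794 in cKO libraries, against 121, 128 and 92.3 in WT libraries (2.73, SE 0.13, adjusted p = 6.5e-08). In both the groups were far apart beside the spread within them. The leucine zipper gene Cebpg (1.03) and the leucine sensor gene Sesn2 (1.35) rose as well.

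Ddit3 and Atf4 had smaller fold changes than Trib3. Ddit3, encoding the pro-apoptotic factor CHOP, had 1254, 1164 and 1149 normalised reads in cKO libraries, against 673, 830.2 and 737 in WT libraries (0.67, SE 0.09, adjusted p = 2.4e-04). Atf4 itself had 6726, 6032 and 6435 in cKO libraries, against 4801, 5613 and 4982 in WT libraries (0.32, SE 0.08, adjusted p = 0.016). Both rose without overlap, but Atf4 no longer passed when WT replicate 1 (adjusted p = 0.1), WT replicate 3 (0.092) or cKO replicate 3 (0.053) was left out, or with a replicate block (0.057). The eIF2α kinase genes Eif2ak1 to Eif2ak4, the mitochondrial stress relay gene Dele1 and the phosphatase subunit gene Ppp1r15a did not pass the test. Nupr1, a stress-induced nuclear protein gene named after its values were seen, had 34.1, 18.3 and 19.7 normalised reads in cKO libraries, against 0, 2.03 and 0 in WT libraries, too few in WT for a fold change.

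The supply side of the pathway rose too. Of 19 tested genes of amino acid and one-carbon synthesis, 11 rose and 0 fell (median 0.53). Asns, which encodes asparagine synthetase, had 135, 131 and 102 normalised reads in cKO libraries, against 31.3, 34.5 and 37.5 in WT libraries (1.80, SE 0.20, adjusted p = 4.8e-05). Shmt2, the mitochondrial serine hydroxymethyltransferase gene, had 3647, 3164 and 3666 in cKO libraries, against 1815, 1977 and 1803 in WT libraries (0.90, SE 0.08, adjusted p = 8.3e-06). Neither gene's groups overlapped, and the alanine transaminase gene Gpt2 (2.83) and the proline synthesis gene Aldh18a1 (0.60) rose with them. Of 12 tested amino acid transporter genes, 7 rose and 0 fell (median 0.51). Slc7a5, the large neutral amino acid transporter gene, had 2417, 2382 and 2661 in cKO libraries, against 967, 955 and 837 in WT libraries (1.44, SE 0.08, adjusted p = 2.3e-07). Slc6a9, a glycine transporter gene, had 78.9, 88.4 and 99.3 in cKO libraries, against 1.12, 5.07 and 0.961 in WT libraries, and Slc1a4, a serine and alanine transporter gene, rose by 3.51. In these lists 2 members of the synthesis genes, 2 of the transporters and 1 of the pathway factors did not hold 10 normalised reads in every WT library, and so passed the minimum through cKO libraries.

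Of 21 cytosolic aminoacyl-tRNA synthetase and tRNA export genes, all of which passed the minimum, 14 rose and 0 fell (median 0.34). Aars, the alanyl-tRNA synthetase gene, had 2156, 2012 and 2219 normalised reads in cKO libraries, against 986, 984 and 1029.8 in WT libraries (1.09, SE 0.07, adjusted p = 7.3e-07). Cars, for cysteine, rose by 0.98, the tRNA exporter gene Xpot by 0.96 and Eprs, for glutamate and proline, by 0.58. The other arms of the unfolded protein response in the endoplasmic reticulum gave 4 rises and 1 fall among 23 tested genes (median 0.02). These shares are near those over all tested genes, 12.1% higher and 7.0% lower. In that list Herpud1, a degradation factor, rose by 0.72 and the sensor gene Ern1 by 0.81, whereas the co-chaperone gene Dnajb9 fell by 0.39. Of 39 proteasome genes tested, 0 passed the adjusted threshold in limma, edgeR or DESeq2, and 0 had an unadjusted p under 0.05 in limma. Without both libraries that stood apart, 2 rose and 1 fell.

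The letters TGATGNAA, of the kind bound by C/EBP and ATF4 pairs, were searched on both strands of the 250 bases before each gene's start in the RefSeq promoter table (GRCm38.p6, not the build of the deposited coordinates). They occur in 1134 of 32851 promoters, or 3.45%. Of the 45 called genes of the 4 lists above, 36 matched a promoter, and 9 of their 44 promoters (20.5%) hold the letters. The genes are Aars, Asns, Atf3, Gars, Got1, Jdp2, Nupr1, Pycr1 and Tars. A match is a description of letters, not a site or a cause, and the genes printed were chosen after their values were seen. Promoters of 3 of these genes are shown 5′ to 3′ on the strand of the gene, with the matching letters or their reverse complement in capitals. Asns lies at chr6:7693210-7693459 on the minus strand with the match 23 bases before the start. Atf3 lies at chr1:191183334-191183583 on the minus strand with the match at 110 bases, and Aars at chr8:111033592-111033841 on the plus strand with the match at 112 bases.
Asns: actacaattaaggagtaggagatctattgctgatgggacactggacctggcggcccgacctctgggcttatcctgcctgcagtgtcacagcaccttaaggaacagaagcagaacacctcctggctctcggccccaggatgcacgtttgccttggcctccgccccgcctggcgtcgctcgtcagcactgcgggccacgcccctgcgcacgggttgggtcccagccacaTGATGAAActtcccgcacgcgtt
Atf3: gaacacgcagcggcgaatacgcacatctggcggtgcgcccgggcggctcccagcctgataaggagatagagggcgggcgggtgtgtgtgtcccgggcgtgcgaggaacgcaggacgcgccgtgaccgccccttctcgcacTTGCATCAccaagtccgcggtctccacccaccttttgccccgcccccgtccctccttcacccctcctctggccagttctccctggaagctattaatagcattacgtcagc
Aars: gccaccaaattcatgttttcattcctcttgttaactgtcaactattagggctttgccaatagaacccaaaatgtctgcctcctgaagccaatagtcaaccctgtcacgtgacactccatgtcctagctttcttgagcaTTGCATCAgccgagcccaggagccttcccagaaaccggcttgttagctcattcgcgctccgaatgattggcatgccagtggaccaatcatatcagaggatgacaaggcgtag

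mRNAs encoded in mitochondrial DNA fell in the libraries labelled cKO. Of the 13, 11 fell and 0 rose, with a median log2 fold change of -0.77. The range ran from -1.76 for mt-Atp8, which had only 8.43 to 22.4 normalised reads in cKO libraries and 26.8 to 121 in WT libraries, to 0.16 for mt-Nd3. mt-Co1, the catalytic subunit of cytochrome c oxidase, had 123495, 102584 and 94855 normalised reads in cKO libraries, against 182047, 197854 and 183343 in WT libraries (-0.82, SE 0.14, adjusted p = 0.0014). mt-Cytb had 34868, 27573 and 24492 in cKO libraries, against 46362, 52719.5 and 47614 in WT libraries (-0.77, SE 0.13, adjusted p = 0.0012). In both genes every cKO library lay below every WT library, with cKO1 the highest of its group. Reads of all mitochondrial genes made up 1.85%, 1.48% and 1.33% of the reads of the cKO libraries, against 2.35%, 2.48% and 2.39% in the WT libraries. Their means were 1.55% ± 0.268 in cKO and 2.41% ± 0.0679 in WT (SD, n = 3 each; exact permutation test p = 0.1, the smallest possible). Without both libraries that stood apart 12 of the 13 fell, and with scaling to library totals 8 did. Copies of mitochondrial genes in the nuclear genome can share reads with them.

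Few nuclear genes of the same machinery passed the test, beside 12.1% higher and 7.0% lower over all tested genes. Of 36 tested complex I genes 1 fell and 0 rose, and of 41 nuclear genes of complexes II to V 2 fell and 1, Cox6a2, rose. Without both libraries that stood apart, 5 complex I genes and 9 genes of complexes II to V fell, with medians of -0.10 and -0.08. Of 77 mitochondrial ribosome genes 0 passed the adjusted threshold in limma, edgeR or DESeq2, and 3 had an unadjusted p under 0.05 in limma. Of 23 tricarboxylic acid cycle genes 0 passed in limma, where 3 had an unadjusted p under 0.05, and 1 fell in edgeR and in DESeq2. Without both libraries that stood apart, 3 mitochondrial ribosome genes and 1 tricarboxylic acid cycle gene fell in limma. Among 14 matrix chaperones and co-factors of GRP75, Hspa9 rose and 2 fell. Dnajc15, a J-domain partner of GRP75 at the import motor, had 1683, 1476 and 1307 normalised reads in cKO libraries, against 2339, 2503 and 2391 in WT libraries (-0.70, SE 0.09, adjusted p = 1.9e-04). Hscb, the J-domain partner for iron-sulfur clusters, was at -0.32 (adjusted p = 0.045), and its call was lost in DESeq2 (0.07), with library totals (0.11), with no filter on low values (0.058), in the fit of all 18 libraries (0.12), with a replicate block (0.11), and without WT replicate 1 (0.089), 2 (0.14) or 3 (0.11) or cKO replicate 2 (0.12) or 3 (0.095). Of 78 cytosolic ribosome genes 4 fell in limma and 14 in DESeq2, and 59 fell in limma without cKO replicate 1, 1 of the libraries that stood apart. Ribosome reads summed to 70100 to 90100 CPM in cKO libraries, with cKO1 highest, and to 79000 to 92500 in WT libraries, with WT2 highest.

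**Figure D2:**
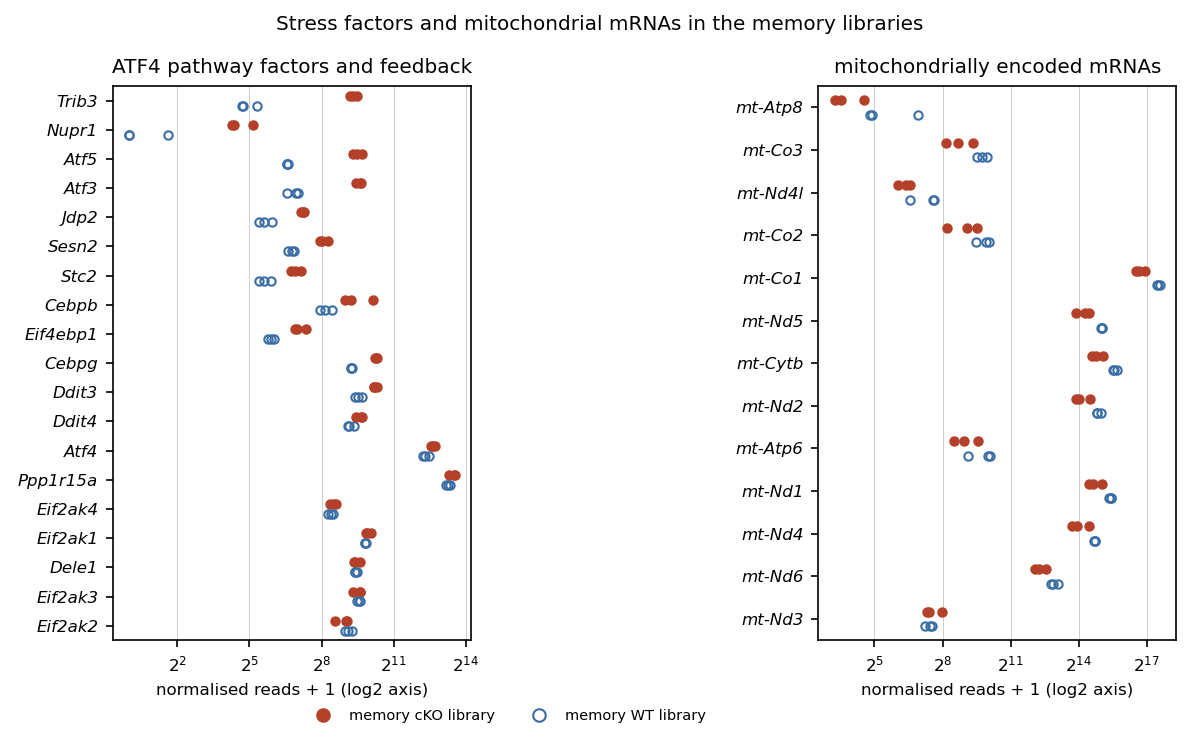
Normalised reads plus 1 (log2 axis) of ATF4 pathway genes (left) and of the 13 mitochondrially encoded mRNAs (right), 1 point per memory library, filled for cKO and open for WT. 13 of 19 pathway genes rose in cKO and 11 of 13 mitochondrial mRNAs fell; Atf4 itself differed by 0.32 on the log2 scale and Trib3 by 4.41.

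Lipid genes moved in opposite directions. Soat2, which encodes a cholesterol-esterifying acyltransferase usually found in liver and intestine (chr15:102058961-102071904), had 818, 885 and 933 normalised reads in cKO libraries, against 109, 100.5 and 83.7 in WT libraries (3.16, SE 0.12, adjusted p = 1.4e-08). Insig1, which retains the sterol-sensing complex in the endoplasmic reticulum, had 954, 1046 and 1009.9 in cKO libraries, against 1613, 1594 and 1529.7 in WT libraries (-0.65, SE 0.07, adjusted p = 5.1e-05). Neither gene's groups overlapped. Of 31 tested sterol and fatty acid synthesis genes, 10 fell and 2 rose (median -0.27). The 2 that rose were the desaturase genes Scd1 (0.79) and Fads2 (2.34). Fads2 passed the minimum through cKO libraries, and Scd1 lost its call in the fit of all 18 libraries (adjusted p = 0.058). Of 24 glycolysis genes 6 rose and 1 fell, beside 12.1% higher and 7.0% lower over all tested genes. Pgam1 was among the rises (0.60), and the fall was that of Pdk1 (-0.60), which encodes a brake on pyruvate entry into mitochondria.

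Survival genes rose on both sides of the balance that controls mitochondrial apoptosis. Of 15 tested BCL2 family genes 9 rose and 0 fell (median 0.55), beside 12.1% higher and 7.0% lower over all tested genes. In that list 1 tested gene passed the minimum through cKO libraries. Bcl2, the protective member, had 7119, 7206 and 6911 normalised reads in cKO libraries, against 3773, 3507 and 3824 in WT libraries (0.94, SE 0.07, adjusted p = 1.9e-06). Bcl2l11, which encodes the killer protein BIM, had 3005, 3366 and 3212 in cKO libraries, against 1827, 1538 and 1721 in WT libraries (0.92, SE 0.08, adjusted p = 8.9e-06). Both pairs of groups were clearly apart. The protective Bcl2l1 (0.97) and the pro-apoptotic Bid (0.65) and Bbc3 (0.76) rose as well. Cdkn1a, a p53 target that stops the cell cycle, had 148, 142 and 123 in cKO libraries, against 52.5, 37.6 and 59.6 in WT libraries (1.47, SE 0.20, adjusted p = 3.0e-04). Niban1, which is induced by stress and limits cell death, had 1398, 1712 and 1617 in cKO libraries, against 424, 459 and 484 in WT libraries (1.79, SE 0.09, adjusted p = 1.2e-07).

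Mitosis genes rose by little, and few DNA replication genes passed the test. Of 42 mitosis and spindle genes 12 rose and 0 fell (median 0.27), and of 40 DNA replication genes 4 rose and 1 fell, beside 12.1% higher and 7.0% lower over all tested genes. The mitosis count was 7 without WT replicate 1 and 7 without cKO replicate 3, and the replication count was 2 without WT replicate 1 or WT replicate 3. Mki67, the proliferation marker, had 2329.7, 2919 and 2770.3 normalised reads in cKO libraries, against 1951, 1817 and 1889 in WT libraries (0.50, SE 0.09, adjusted p = 0.0019). The groups did not overlap, and the spread was wider in cKO. Cdk6, a G1 kinase gene, rose by 0.95 and the mitotic regulator gene Foxm1 by 0.65, whereas Cdkn2d, a G1 inhibitor gene, fell by 0.50 on the log2 scale.

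Genes of the naive and central memory state fell in the libraries labelled cKO. Of 27 tested, 19 fell and 2 rose (median -0.42). Tcf7, which encodes TCF1 (chr11:52143198-52174158), had 19723, 18724 and 19128 normalised reads in cKO libraries, against 29339, 30559 and 28672 in WT libraries (-0.62, SE 0.08, adjusted p = 2.0e-04). Il7r, the IL-7 receptor gene, had 7807, 7863 and 7389 in cKO libraries, against 11048, 10837 and 10449 in WT libraries (-0.49, SE 0.07, adjusted p = 4.6e-04). Both stayed among the abundant mRNAs of the cKO libraries while every cKO library lay below every WT library. Il6ra (-1.12) and Tdrp (-0.88) fell further, and Dapl1, described above, fell furthest of the named members.

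Regulators of effector fate went the other way. Of 23 tested, 11 rose and 1 fell (median 0.29), and 2 of the 23 passed the minimum through cKO libraries. Bhlhe40, which supports mitochondrial function and cytokine production in T cells, had 5805, 5711 and 5888 normalised reads in cKO libraries, against 1506, 1711 and 1584 in WT libraries (1.86, SE 0.07, adjusted p = 1.4e-08). Tbx21, encoding T-bet, had 1217, 1257 and 1382 in cKO libraries, against 625, 697 and 696 in WT libraries (0.93, SE 0.08, adjusted p = 8.9e-06). In both the 2 groups were apart. Eomes, the T-box partner gene tied to memory upkeep, had 2106, 1921 and 2034 in cKO libraries, against 2124, 2213 and 1875 in WT libraries, and did not pass the test (-0.03, SE 0.08, adjusted p = 0.82). Irf8, which is also abundant in dendritic cells and B cells, rose by 2.16. Of 15 memory surface marker genes 4 rose and 1 fell, beside 12.1% higher and 7.0% lower over all tested genes. Cd44 was at 0.80 and Cd38 at 1.23, and 5 members rose and 4 fell without both libraries that stood apart.

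**Figure D3:**
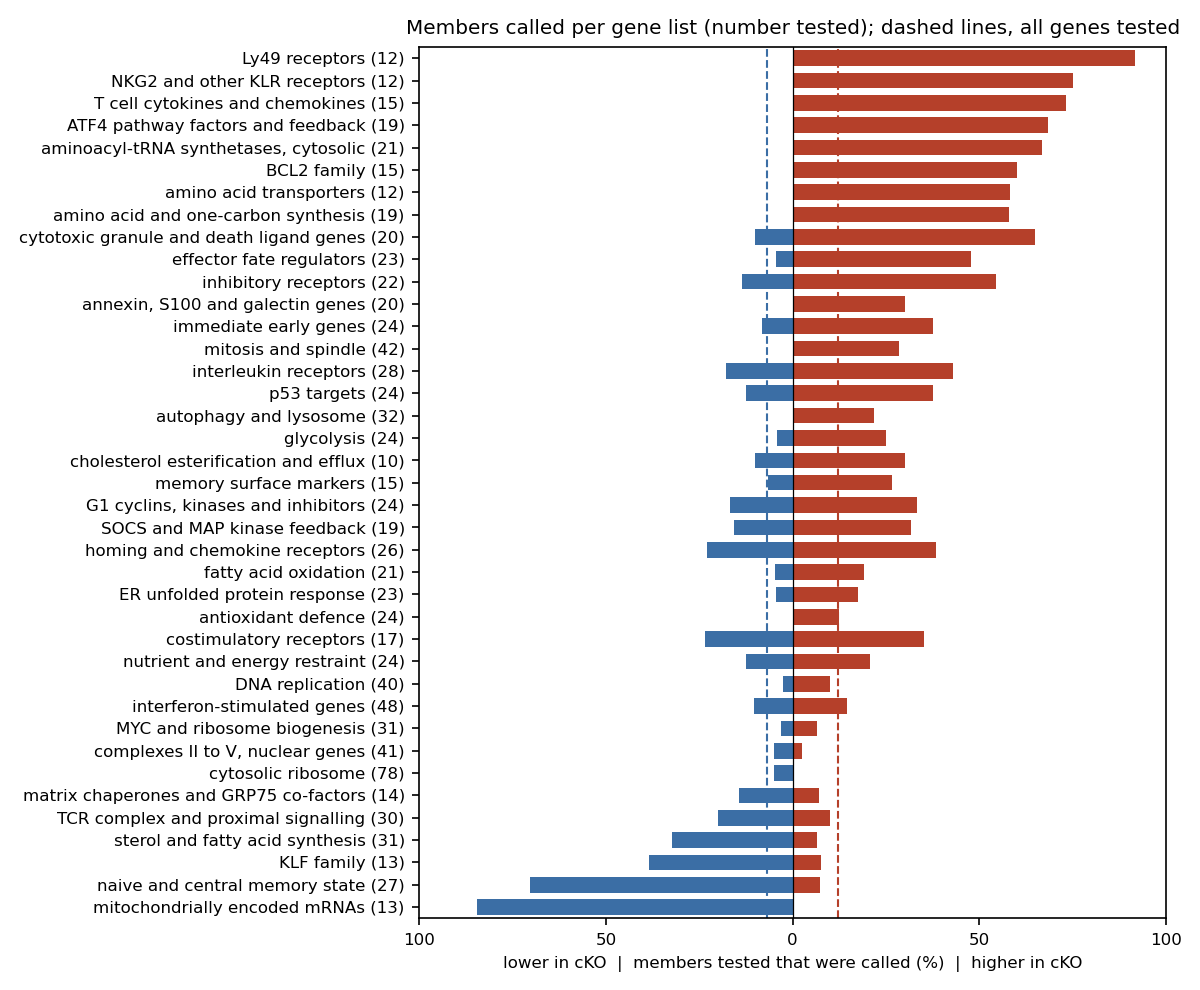
Share of the tested members of each gene list that were called lower (left, blue) or higher (right, red) in memory cKO libraries, in percent, with the number tested in brackets and dashed lines at the shares over all tested genes, 7.0% lower and 12.1% higher. ATF4 pathway, cytokine and NK receptor lists lean higher; mitochondrial mRNAs and the naive and central memory list lean lower.

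Most killing genes rose, and the perforin gene fell. Of 20 tested cytotoxic granule and death ligand genes 13 rose and 2 fell (median 0.41), and the 13 became 8 without WT replicate 3. Fasl, the death ligand gene (chr1:161608258-161616064), had 865, 843 and 808 normalised reads in cKO libraries, against 162, 156 and 142 in WT libraries (2.44, SE 0.10, adjusted p = 1.6e-08). Gzmb, the granzyme B gene, had 1109, 1038 and 909.7 in cKO libraries, against 496, 550.1 and 445 in WT libraries (1.03, SE 0.10, adjusted p = 2.2e-05). In both every cKO library was above every WT library. Prf1, encoding perforin, had 819.7, 718 and 869 in cKO libraries, against 1026, 1115 and 1078 in WT libraries (-0.42, SE 0.09, adjusted p = 0.0052). The granzyme inhibitor gene Serpinb6b rose by 0.96.

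Of 15 tested T cell cytokine and chemokine genes 11 rose and 0 fell (median 1.31), and 4 of the 15 passed the minimum through cKO libraries. Ifng, the interferon-γ gene, had 1537, 1218 and 1052 normalised reads in cKO libraries, against 463, 550.1 and 506 in WT libraries (1.31, SE 0.13, adjusted p = 1.6e-05). Ccl5, a chemokine gene of memory and effector CD8 T cells, had 14211, 10762 and 10269.9 in cKO libraries, against 3572, 3778 and 3597 in WT libraries (1.67, SE 0.11, adjusted p = 6.9e-07). In both the cKO values were spread and the WT values close together, with no overlap. Xcl1, a chemokine gene that draws cross-presenting dendritic cells, rose by 2.29 and Ccl4 by 1.49. NK and γδ T cells make several of these products, and their markers summed to 315 to 345 and 143 to 177 CPM in cKO libraries, against 140 to 162 and 22.3 to 24.2 in WT libraries. Their part in the killing and cytokine gene counts was not tested.

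Receptors for cytokines that keep memory cells alive were split. Of 28 tested interleukin receptor genes 12 rose and 5 fell (median 0.11), and 1 of the 28 passed the minimum through cKO libraries. Il2rb, the shared IL-2 and IL-15 receptor chain gene (chr15:78363456-78379471), had 17937, 17482 and 18135 normalised reads in cKO libraries, against 7813, 7823 and 7698 in WT libraries (1.20, SE 0.07, adjusted p = 3.1e-07). Each library lay close to its group mean, and Il2rb rose where Il7r fell. The feedback genes Cish (2.50) and Spry2 (2.94) rose, and Dusp10, a MAP kinase phosphatase gene, fell by 0.69 on the log2 scale. Of 26 tested homing and chemokine receptor genes 10 rose and 6 fell (median 0.18), with the collagen-binding integrin gene Itga1 at 3.23, Ccr2 at 1.09 and the follicle homing receptor gene Cxcr5 at -1.30. Both receptor counts stand beside 12.1% higher and 7.0% lower over all tested genes.

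Inhibitory receptors were also divided. Of 22 tested, 12 rose and 3 fell (median 0.53), and 1 of the 22 passed the minimum through cKO libraries. Lilrb4b, an inhibitory immunoglobulin-like receptor gene, had 5874, 6143 and 5643 normalised reads in cKO libraries, against 1268, 1173 and 1211 in WT libraries (2.27, SE 0.07, adjusted p = 3.0e-09). It can share reads with its neighbour Lilrb4a, which rose by 2.46. Ctla4, a brake on CD28 signalling, had 1785, 1940.2 and 1629 in cKO libraries, against 3935, 3941 and 4049.8 in WT libraries (-1.16, SE 0.08, adjusted p = 7.8e-07). The groups did not overlap in either gene, and Cd160 rose by 1.53. Of 30 tested genes of the T cell receptor complex and its proximal signalling 3 rose and 6 fell, and 12 fell without cKO replicate 1. With no library left out, 12.1% of all tested genes were higher and 7.0% lower. Cd8b1, the CD8β chain gene, had 9468, 8268 and 7976 in cKO libraries, against 14592, 16376 and 14822 in WT libraries (-0.83, SE 0.09, adjusted p = 3.5e-05), and Cd8a fell by 0.38.

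Receptors shared with natural killer (NK) cells gave the largest list medians outside the cell type marker lists. Of 12 tested Ly49 receptor genes 11 rose and 0 fell (median 2.87), and of 12 tested NKG2 and other KLR genes 9 rose and 0 fell (median 1.84). In each list 3 tested members passed the minimum through cKO libraries. Klra7, encoding Ly49G (chr6:130195568-130210285), had 1868, 1770.1 and 1545 normalised reads in cKO libraries, against 135, 154 and 149 in WT libraries (3.55, SE 0.10, adjusted p = 1.9e-09). Klrk1, the gene of the activating receptor NKG2D, had 2669, 2782 and 2634 in cKO libraries, against 808, 764 and 855 in WT libraries (1.74, SE 0.07, adjusted p = 2.0e-08). Both groups were apart in each gene. Klre1 (2.96), Klrc2 (2.35) and Klrc1 (1.73) rose with them. Ly49 genes are close copies of each other, so the split of reads among them is uncertain. The listed NK cell markers summed to 315 to 345 CPM in cKO libraries, against 140 to 162 in WT libraries. They include Klre1 itself, Ly49 genes such as Klra9, and Eomes, which did not pass the test. The sum is therefore not independent of the receptor lists above, and the part of NK cells in the result was not tested.

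Markers of cells other than CD8 T cells rose in the same libraries. Of 15 neutrophil markers, 14 passed the minimum, 6 of them through cKO libraries, and 14 rose (median 3.47). The 15 summed to 319, 257 and 240 CPM in cKO libraries, against 22.7, 25.5 and 24.2 in WT libraries. Of the 15 neutrophil markers, 7 were under 1 CPM in WT, and the defining marker Ly6g had 0 reads in every WT library. Of 20 macrophage and dendritic cell markers 16 rose (median 2.59), 9 having passed the minimum through cKO libraries, with sums of 433, 393 and 378 in cKO and 67.6, 70.6 and 74.8 in WT. MHC class II presentation genes gave 7 rises of 8 tested (median 2.16), with sums of 1650 to 2010 in cKO and 372 to 438 in WT. The γδ T cell markers gave 6 rises of 8 tested (median 2.53), 2 having passed the minimum through cKO libraries, with sums of 143 to 177 in cKO and 22.3 to 24.2 in WT. B cell markers gave 11 rises of 14 tested (median 0.69), with sums of 858 to 956 in cKO and 699 to 755 in WT, and erythroid markers 8 of 12, 3 having passed the minimum through cKO libraries, with sums of 76.8 to 95.3 in cKO and 31.1 to 38.3 in WT. In the fit of all 18 libraries, 5 B cell and 2 erythroid markers rose. CD8 T cell markers gave 0 rises and 3 falls of 8 tested, and 6 falls without cKO replicate 1. Since the RNA is from bulk cells, fewer cells of a type and less RNA per cell cannot be told apart, and the part of these cells in the changes of myeloid, NK receptor, cytokine and effector genes was not tested.

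Single markers had no overlap between the groups. S100a9, a calcium-binding alarmin gene of neutrophils, had 1074, 808 and 698 normalised reads in cKO libraries, against 44.7, 54.8 and 58.7 in WT libraries (3.99, SE 0.17, adjusted p = 2.0e-08). Tyrobp, an adaptor gene of myeloid and NK cells, had 280.4, 258 and 249 in cKO libraries, against 35.7, 40.6 and 38.5 in WT libraries (2.75, SE 0.15, adjusted p = 1.8e-07). Trgc2, a constant region gene of the T cell receptor γ chain, had 881, 719.8 and 696 in cKO libraries, against 53.6, 68.0 and 45.2 in WT libraries (3.77, SE 0.16, adjusted p = 2.1e-08). In all 3 genes cKO1 was the highest library and no cKO library overlapped a WT library. The γ constant genes are near copies and may exchange reads, and Trdc, of the δ chain, rose by 1.86. H2-Ab1 (2.37) and Cd74 (2.18), of antigen presentation by MHC class II, and Cd22 (1.54), a B cell co-receptor gene, rose too.

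**Figure D4:**
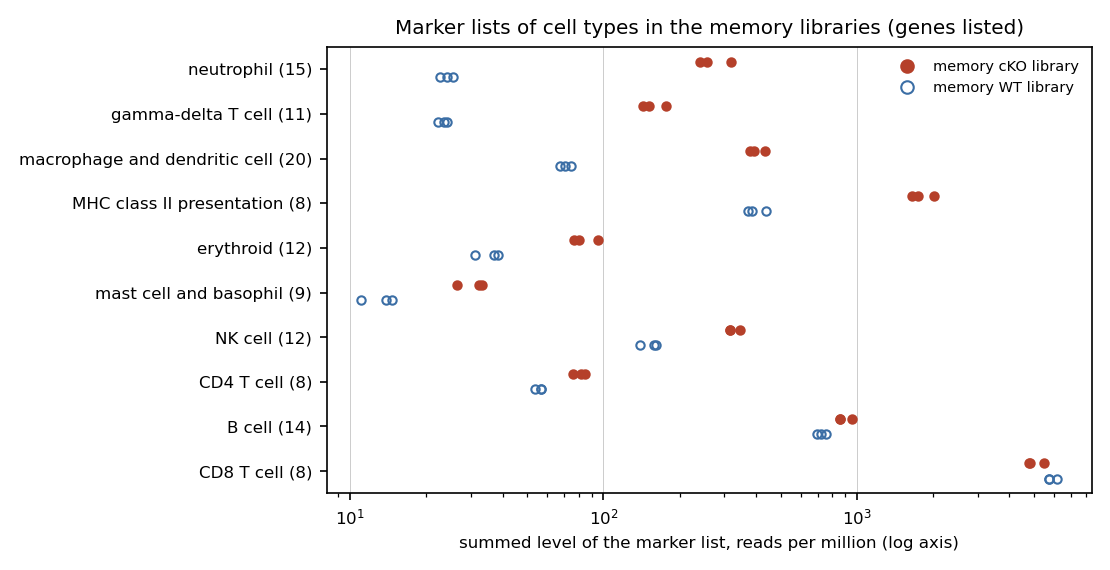
Summed level of each marker list in CPM (log axis), 1 point per memory library, filled for cKO and open for WT, with the number of listed genes in brackets. Neutrophil markers sum to 240 to 319 in cKO and 22.7 to 25.5 in WT, whereas CD8 T cell markers sum to 4760 to 5450 in cKO and 5720 to 6170 in WT.

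The neutrophil list had the largest share of members called in 1 direction, so promoters of its genes among the largest rises are shown. The letters TTGCNNAA, of the kind bound by C/EBP factors of myeloid cells, occur on either strand in 3142 of the 32851 promoters (9.56%) and in 5 of 13 promoters of the 14 neutrophil markers (38.5%). These belong to Ltf, Mmp8, Ngp, Retnlg and S100a9, and a match says only that the letters are present. Ltf, encoding lactoferrin, lies at chr9:111019042-111019291 on the plus strand, and Ngp, a neutrophil granule protein gene, at chr9:110419558-110419807 on the plus strand, both in GRCm38.p6. Capitals mark the letters or their reverse complement, and the 2 matches in Ngp do not overlap.
Ltf: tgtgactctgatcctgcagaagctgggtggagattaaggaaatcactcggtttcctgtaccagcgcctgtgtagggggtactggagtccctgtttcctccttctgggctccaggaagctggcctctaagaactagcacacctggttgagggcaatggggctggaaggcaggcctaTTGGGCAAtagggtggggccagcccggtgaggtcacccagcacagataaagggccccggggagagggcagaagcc
Ngp: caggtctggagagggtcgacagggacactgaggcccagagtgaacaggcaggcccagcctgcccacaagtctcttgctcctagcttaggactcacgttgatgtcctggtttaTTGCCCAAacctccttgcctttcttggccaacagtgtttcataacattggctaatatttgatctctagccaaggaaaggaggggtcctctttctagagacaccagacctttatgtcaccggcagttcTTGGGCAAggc

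Whether the genotype effect differed from that in the other subsets was tested as an interaction. In naive cells 3454 of 13885 tested genes (24.9%) differed between the genotypes, 1796 higher (12.9%) and 1658 lower (11.9%) in libraries labelled cKO. In effector cells 2779 of 13815 (20.1%) did, 1485 higher (10.7%) and 1294 lower (9.37%). The effect in memory cells differed from that in naive cells for 2155 of 14921 genes (14.4%), being above it for 957 (6.41%) and below it for 1198 (8.03%). It differed from that in effector cells for 1715 of 15130 genes (11.3%), being above it for 1057 (6.99%) and below it for 658 (4.35%). Both differences use the same 6 memory libraries, so they are not independent of each other, and values are given side by side. In naive cells 4 of 5 sex-linked genes tested were higher and 1 was lower in libraries labelled cKO, with a median log2 fold change of 10.32. The naive genotype effect therefore cannot be told apart from a difference in the sex of the mice, and every difference from naive cells carries this.

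The log2 fold change of Hspa9 was 0.48 in memory, 0.69 in naive and 0.16 in effector cells. The memory effect was 0.32 above that in effector cells (SE 0.08, adjusted p = 0.016), and its difference of -0.21 from naive cells did not pass (adjusted p = 0.13). Of 20 ATF4 pathway genes tested against naive cells, the memory effect was below the naive one for 5 and above it for 2, and of 19 tested against effector cells it was above the effector one for 10 and below it for 0. For Atf4 neither difference passed, at -0.24 from naive (adjusted p = 0.12) and 0.23 from effector cells (adjusted p = 0.13), and for Atf3 the difference from naive cells did not pass either (adjusted p = 0.69). Genes with larger differences were Trib3, Asns, Soat2 and Cdkn1a. Trib3 differed between the genotypes by 4.41 in memory cells, 7.04 in naive cells and 0.65 in effector cells on the log2 scale. The memory effect was 2.63 below the naive one (-2.63, SE 0.63, adjusted p = 0.01) and 3.76 above the effector one (SE 0.34, adjusted p = 8.5e-07). Asns differed by 1.80 in memory, 5.72 in naive and 0.19 in effector cells, with differences of -3.92 and 1.61 that both passed. For Soat2 the differences were -2.93 from naive and 2.93 from effector cells, and for Cdkn1a they were -3.75 and 1.22.

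Of 21 aminoacyl-tRNA synthetase and export genes, the memory effect was below the naive one for 12 and above the effector one for 13, and for 0 the other way. In naive cells 14 of them rose and 3 fell, and in effector cells 0 rose and 1 fell. The mitochondrial mRNAs went in the reverse order. In naive cells 12 of 13 fell and 1 rose (median -1.67), and in effector cells 5 rose and 0 fell (median 0.16). The memory effect was above the naive one for 9 of the 13 and below the effector one for 8. For mt-Co1 the differences were 1.01 from naive (SE 0.18, adjusted p = 0.0011) and -1.07 from effector cells (SE 0.13, adjusted p = 3.1e-05).

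Of 42 mitosis genes 12 rose in memory cells, 39 rose in naive cells and 41 fell in effector cells, and the memory effect was below the naive one for 35 and above the effector one for 32. For the 27 naive and central memory genes, the memory effect was below the naive one for 14 and above it for 1, and below the effector one for 17 and above it for 0. For Il7r the difference was -1.05 from effector cells (SE 0.07, adjusted p = 3.1e-08) and -0.01 from naive cells (adjusted p = 0.98). For Il2rb the memory effect was above both others, by 0.83 over naive cells (SE 0.10, adjusted p = 3.7e-05) and 0.92 over effector cells (SE 0.07, adjusted p = 1.1e-07).

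Marker lists were compared between subsets as well. Ly49 genes rose in effector cells for 10 of 11 tested members (median 2.12), and the memory effect was above the effector one for 2 of 12 and below it for 3. Neutrophil markers rose in effector cells for 10 of 11 (median 1.72), and the memory effect was above it for 6 of 14. For γδ T cell markers 5 of 6 tested rose in naive and 7 of 9 in effector cells. The memory effect on them differed from the naive one for 0 of 8 tested and from the effector one for 0 of 9. Over all genes tested, it differed from the naive effect for 14.4%. Against the effector effect the share was 11.3%, with 6.99% above and 4.35% below. With so few γδ markers, counts of 0 are near these shares and do not show that the effects were the same.

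**Figure D5:**
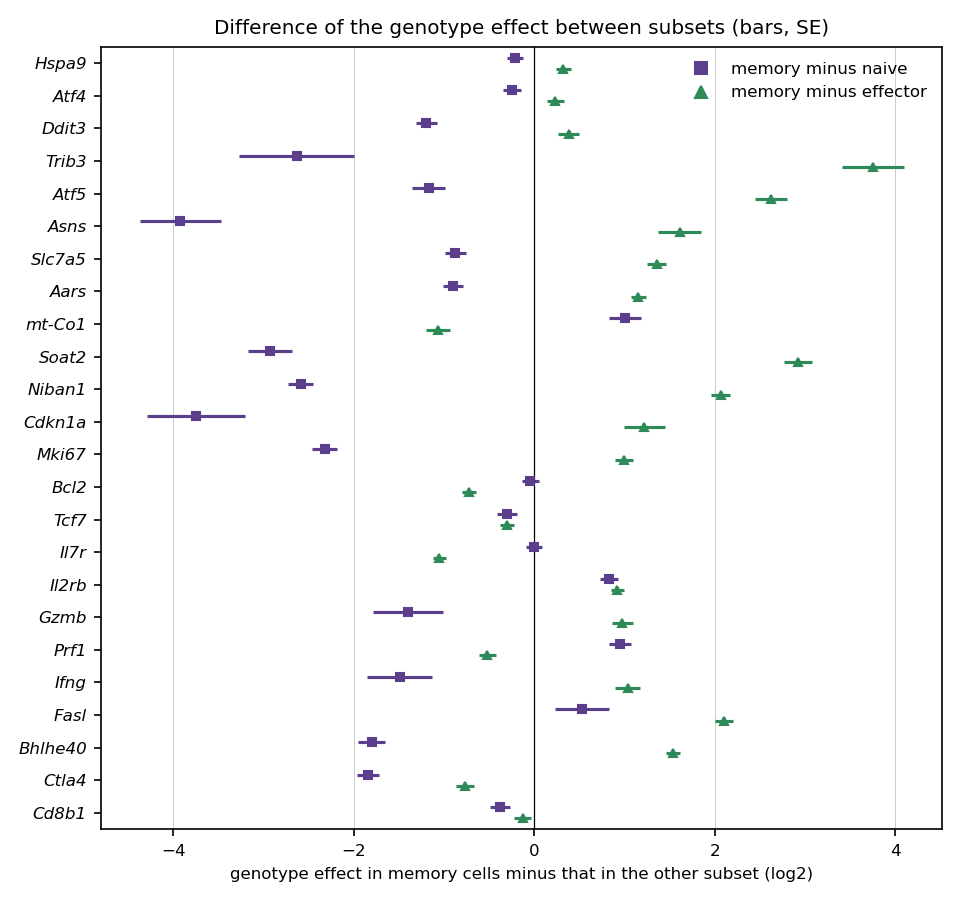
Genotype effect in memory cells minus that in naive (squares) or effector (triangles) cells, in log2 units, for 24 genes, with bars of 1 SE. Trib3, Asns and Soat2 lie below 0 against naive and above 0 against effector cells, mt-Co1 lies the other way, and Il2rb lies above 0 against both.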

How the data were processed

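RNA was selected with poly-T beads and sequenced, per the labels' protocols. Per the submitters' processing notes the build was GRCm39 and the tools were DESeq2 1.42.0, featureCounts 2.0.6, HISAT2 2.2.1 and fastp, while the order, settings, annotation and strand setting are not given in the sources used here. The authors deposited, for each subset, a table with signal values of each gene in each library, a log2 fold change that sets WT over cKO, a p-value and its adjusted form. All 2793 genes called here had the opposite sign in that WT over cKO column, and so the same direction. Dividing each deposited signal value by the smallest positive value of its column gave whole reads for 100% of the values in all 18 libraries, within a tolerance of 1e-05 reads, so the signal is a read count over 1 size factor per library.

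The main test was limma 3.58.1 (R 4.3.3) with an intensity trend on log2(normalised reads + 1), for genes reaching 10 normalised reads in 3 or more of the 6 libraries, with Benjamini-Hochberg adjustment over all genes tested and calls at an adjusted p under 0.05. Fold changes on this scale understate the change of genes with few reads. Differences between subsets were interaction terms in a limma fit of 12 libraries. edgeR 4.0.16 and DESeq2 1.42.0 on the recovered reads, other scalings, filters and pseudocounts, a replicate block, a fit of all 18 libraries and leaving out each library were alternatives. The scripts were tested on simulated data. Counting error is small at these depths for genes with many reads, but not for genes near or below 10 normalised reads in a group. The common biological coefficient of variation in edgeR was 9.94%.

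The promoters, the 63 gene lists and the rule that named genes were chosen with earlier results of these data known. Named genes were Hspa9, a few stress and T cell genes, the 12 largest called changes per direction (mean log2 CPM of 2 or more, no overlap between groups), and, from lists in which 3 or more members were called, up to 4 members by smallest adjusted p. Other genes named were chosen after their values were seen, and some genes that the rule named are not reported here. Lists are described by counts and medians with no test. The departures of same-numbered libraries from their group means correlated at -0.280, -0.311 and 0.157 over 10135 genes, against 0.438 for cKO1 and WT2. As cKO1 and WT2 stood apart and departures within a group are tied together, these values cannot show whether libraries were paired. No 2 libraries agreed within sampling noise.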

Additional observations from a re-analysis of the deposited data

Results flagged for a closer look

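The genotype effect in memory cells differed from the effect in another subset for the genes below, by the interaction test in limma at an adjusted p under 0.05, and all values are differences of log2 fold changes between libraries labelled cKO and WT. The comparisons with naive and with effector cells share the memory libraries. Sex-linked genes differed between the naive genotypes, so differences from naive cells cannot be told apart from an effect of sex.

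Against naive cells, these stress and cycling genes had a smaller effect in memory cells. The difference was -2.63 for Trib3, -1.20 for Ddit3, -3.92 for Asns, -2.93 for Soat2, -2.59 for Niban1, -3.75 for Cdkn1a and -2.32 for the proliferation marker gene Mki67. For effector molecules it was -1.40 for Gzmb and -1.49 for Ifng, and above 0 for Prf1, at 0.95, and for Il2rb, at 0.83. Prf1 fell in both subsets, at -0.42 in memory and -1.37 in naive cells, whereas Il2rb rose in both, at 1.20 and 0.37. Among genes with a mean log2 CPM of 2 or more over the 12 libraries and no overlap between memory groups, the largest differences above 0 were 4.97 for the globin gene Hbb-bs (SE 1.5), 4.37 for the complement gene C3, 4.29 for Ltf, 4.24 for Ngp and 4.08 for Chil3. Hbb-bs rose by only 1.23 in memory cells. It averaged 0.287 normalised reads in naive cKO libraries and 46.3 (SD 45.8) in naive WT libraries, so its difference rests mostly on these uneven naive libraries. C3, Ltf, Ngp and Chil3 averaged 1.22 to 2.80 normalised reads in naive cKO libraries and 1.08 to 2.43 in naive WT libraries, too few to measure an effect in naive cells, so the differences of these 4 genes mostly restate the memory effect. That of Chil3 did not pass in edgeR (adjusted p = 0.055). By the same limits the other large differences below 0 were -4.40 for the scavenger receptor gene Scart1, -3.90 for the interferon-induced gene Oasl2 and -3.57 for the membrane protein gene Emp1, and Scart1, Asns, Cdkn1a and Emp1 averaged only 1.36 to 3.44 normalised reads in naive WT libraries.

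Against effector cells, the memory effect was above the effector one for these stress and cycling genes. The difference was 3.76 for Trib3, 0.38 for Ddit3, 2.93 for Soat2, 2.07 for Niban1, 1.22 for Cdkn1a, 0.99 for Mki67 and 0.32 for Hspa9. Mki67 and Niban1 had opposite directions, at 0.50 and 1.79 in memory cells and -0.50 and -0.28 in effector cells. The memory state genes Tcf7 and Il7r were below 0, at -0.30 and -1.05. Effector molecules gave 0.98 for Gzmb, 1.03 for Ifng, 0.92 for Il2rb and -0.52 for Prf1. By the same limits the largest differences above 0 were 4.87 for Cox6a2, 4.13 for Siglech, 3.83 for the semaphorin receptor gene Plxnb2 and 3.48 for Klrb1c, which encodes NK1.1 in some strains. Cox6a2 averaged only 15.0 normalised reads in effector cKO libraries and 9.53 in effector WT libraries. Its rise was larger in naive cells, at 7.46, than in memory cells (memory minus naive -1.96, adjusted p = 4.6e-04 in limma). The largest below 0 were -2.26 for Mid1-ps1, -2.18 for the growth factor receptor gene Igf1r, -2.11 for Klra13-ps, -2.11 for the globin gene Hba-a1 and -2.08 for Klra10, and globin and Ly49 genes can share reads with their copies. Mid1-ps1 and Igf1r fell in memory cells, at -4.7 and -1.01. Klra13-ps, Hba-a1 and Klra10 rose in memory cells, by 1.29, 1.09 and 1.21, and rose more in effector cells, by 3.4, 3.2 and 3.29.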

How the results depend on the processing

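Against 2793 calls, leaving out 1 library gave 1839 to 3310, with 1342 to 1927 higher and 497 to 1383 lower. Lower genes numbered 639 with scaling to library totals and 1604 without both libraries that stood apart, an alternative chosen after seeing the data, beside 1024. edgeR called 2854 genes (2769 shared), DESeq2 2735 (2597 shared) and the fit of all 18 libraries 3223; the other settings of scaling, pseudocount and filter gave 2323 to 2898, the highest with library totals. The cause of these moves was not tested. The log2 fold change of Hspa9 was 0.46 to 0.50 when 1 library was left out, and 0.55 with library totals. The mitochondrial share differed by -0.86 percentage points, and by -1.0 to -0.74 with 1 library left out. Differences from naive cells numbered 1444 to 2377 with 1 library left out, beside 2155, and from effector cells 1290 to 2032, beside 1715. edgeR gave 2165 differences from naive and 1769 from effector cells.

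The replicate numbers are not known to pair libraries. With a replicate block 2226 genes were called (1488 higher, 738 lower; 2193 shared), Hspa9 stayed at 0.48, and differences from naive cells numbered 1311 and from effector cells 1242. No called fold change or difference of a named gene changed sign under any alternative run, but some list medians within 0.1 of 0 did, and with library totals the median of all genes was 0.055 beside -0.02. Of 202 called genes named by the rule, 13 lost the call under the block, 10 with library totals and 2 to 19 with 1 library left out. Genes with few WT reads limit the size of fold changes, not their direction.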

Other observations

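Other gene groups had called members in the libraries labelled cKO, several at shares near those over all tested genes. Annexin, S100 and galectin genes, many of them raised in effector and tissue T cells and in myeloid cells, gave 6 rises and 0 falls of 20 tested, beside 12.1% higher and 7.0% lower over all tested genes. Anxa1, encoding the pro-resolving annexin A1, had 311, 273 and 241 normalised reads in cKO libraries, against 36.8, 31.5 and 32.7 in WT libraries (log2 fold change 2.99, SE 0.17, adjusted p = 1.8e-07 with limma). The groups did not overlap, and macrophage markers rose in the same libraries, whose part in this was not tested. Autophagy and lysosome genes gave 7 rises and 0 falls of 32, with the protease gene Ctsl at 0.91 and Gabarapl1, of the autophagosome membrane, at 0.77. Among fatty acid oxidation genes 4 of 21 rose and 1 fell, with Cpt1a, which admits long-chain fatty acids to mitochondria, at 0.45.

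Immediate early genes gave 9 rises and 2 falls of 24, and 15 rises without both libraries that stood apart. Nr4a2, an orphan receptor gene induced by T cell receptor signals, had 1938, 2604 and 2514 normalised reads in cKO libraries, against 1226, 1067 and 1108 in WT libraries (1.04, SE 0.11, adjusted p = 3.2e-05). The KLF family gave 1 rise and 5 falls of 13, and 3 falls without WT replicate 1, 2 or 3, with the quiescence factor gene Klf3 at -0.65. Interferon-stimulated genes gave 7 rises and 5 falls of 48, close to the shares over all tested genes. The count of rises was 4 without WT replicate 3 or cKO replicate 2, and the count of falls was 2 without WT replicate 1. Few genes of calcium transfer from the endoplasmic reticulum (1 of 20) or of iron handling (1 of 15) passed. These were Slc8b1, the mitochondrial sodium-calcium exchanger gene (1.38), and Steap3, a ferrireductase gene (1.17), and 4 iron genes passed with library totals and 4 without both libraries that stood apart.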
